A study of Mus musculus with 32 samples.

Results

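Tumors that grew in the pleural cavity from AB1 and from AE17, a pair of mesothelioma cell lines of the mouse, were compared. The 16 tumors were chosen by their labels and comprised 8 intrapleural (IPL) AB1 tumors and 8 IPL AE17 tumors, out of 32 tumors in all. AB1 cells were given to BALB/c mice at 500000 cells per mouse and AE17 cells to C57BL/6 mice at 1000000 cells per mouse. The mice were untreated and 8 to 10 weeks old. The study's methods give them as female. Tumors were collected on day 10, freed of lung and other adjoining tissue, and sequenced whole, so that each library holds RNA of tumor cells and of the host cells among them. The other 16 tumors came from the same lines under the skin (subcutaneous, SC), 8 per line, in other mice, and are used to show which pleural differences were also present at another site. Each model is 1 line in 1 strain, inoculated at its own cell number. Line, strain and cell number therefore changed together, and their parts in a difference cannot be told apart.

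Mesothelioma arises from the mesothelium, the flat cell layer that lines the pleura and other body cavities, and is linked to asbestos. It is marked by loss of tumor suppressor genes, among them the Cdkn2a locus with its neighbor Mtap, Bap1 and Nf2, and by activity of receptor tyrosine kinases such as Met, which binds hepatocyte growth factor. Tumors that grow in an immune-competent mouse also hold macrophages, lymphocytes, vessels and fibroblasts, and RNA of the whole tumor reports on all of them at once.

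Total counts lay between 17212485 and 20649645 per AB1 tumor (median 18934094) and between 16663618 and 18161128 per AE17 tumor (median 17151220). The means differed by 1576634 counts (exact two-sided permutation test, p = 0.001554), and levels are therefore given as counts per 1000000 (CPM) scaled by TMM factors, with the mean ± SD over 8 tumors. The limit of detection was set at 3 counts, between 0.140 and 0.186 CPM in these libraries, and covers counting error only. Where a group's mean is under this limit, its fold change is a fitted value that depends on the prior count. All AB1 IPL libraries were read in 1 sequencing lane, and AE17 IPL libraries in 2 others, so that lane and line cannot be told apart in the pleura. In the skin AB1 libraries were read in 2 lanes and AE17 libraries in another, so that the same holds there. In the pleura AB1 tumors varied more among themselves than AE17 tumors: the median SD of a gene over the 8 tumors was 0.238 log2 CPM for AB1 against 0.143 for AE17 (9724 genes). In the skin the order was the opposite, with 0.121 for AB1 and 0.170 for AE17. AB1 IPL 4 and AB1 IPL 2 departed most from their group, with an SD of 0.728 and 0.661 log2 units over genes, and in AB1 IPL 4 this departure followed the GC content of the genes (Spearman's rho 0.763 across genes, which are not independent). Markers of red cells, neutrophils, B cells and fat were high in single tumors, those of skeletal muscle were high in most AB1 tumors, and their values are given with the results they touch.

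The 2 lines differed in most genes. Of 14886 genes tested, 8793 (59.1%) differed between AB1 and AE17 tumors at an adjusted p under 0.05 (edgeR quasi-likelihood test, Benjamini-Hochberg), of which 4535 (30.5%) were higher in AB1 and 4258 (28.6%) in AE17. The difference was at least 1 log2 unit in 3006 genes (20.2%), and 4247 genes (28.5%) had no overlap between the 8 AB1 and the 8 AE17 values. With scores of skeletal muscle, heart muscle, fat and lung epithelium markers as covariates the count of called genes was 4891. In that fit 45 of the 247 called genes named here lost their call, among them the Y-linked genes, Hoxa2, Hoxa11, Hoxb3, Hoxb5, Hoxb9, Hoxc9, Rb1, Rassf1, Tsc1, Mdm2, Bax, Ccng1, Ido1, Irf1, Cd274, Pdcd1, Foxp3, Cd3e, Mki67, Ccne1, Ppargc1a, Acta1 and Ckm. Red cell markers were not among the scores. The summed lung list did not overlap between the lines (11.9 to 33.8 CPM in AB1, 44.4 to 56.0 CPM in AE17). This fit therefore cannot tell tissue from line. Fold changes below are log2 of AB1 over AE17, so that a positive value is higher in AB1, and the median over all tested genes was 0.02. In the skin 9370 of 14718 genes (63.7%) differed. Of 14476 genes tested at both sites, 6542 were called at both, which is 76.3% of the pleural and 70.8% of the skin calls, and 6312 of them had the same direction. The AB1 to AE17 difference itself differed between pleura and skin in 3212 of 15681 genes (20.5%), more positive in the pleura in 1860 (11.9%) and more negative in 1352 (8.62%), and by at least 1 log2 unit in 1347 (8.59%).

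The largest differences were close to presence against absence. Among named protein-coding genes higher in AB1 and with at least 5 CPM, Cdhr5, which encodes a cadherin-related protein of the epithelial brush border, had the largest fold change. It lay between 524 and 758 CPM in AB1 tumors (median 682) and between 0.285 and 2.44 CPM in AE17 tumors (median 0.887), a log2 fold change of 9.30 ± 0.31 (SE, adjusted p = 2.16e-13). Baiap2l1, whose product shapes the plasma membrane over actin, lay between 1075 and 1402 CPM in AB1 tumors (median 1161) and between 3.27 and 11.6 CPM in AE17 tumors (median 5.94), a log2 fold change of 7.53 ± 0.24 (adjusted p = 1.09e-13). No AE17 tumor reached even the lowest AB1 value of either gene. Rhox5, a homeobox gene on the X chromosome that is normally expressed in the testis, averaged 235 ± 37.1 CPM in AB1 and 1.87 ± 1.22 CPM in AE17 tumors. Stmn2, a microtubule regulator of neurons, lay between 182 and 383 CPM in AB1 tumors (median 237) and between 0.114 and 15.7 CPM in AE17 tumors (median 1.13), and the highest AE17 value was that of AE17 IPL 5, without which the log2 fold change was 7.79 instead of 6.42. Pianp averaged 164 ± 22.1 CPM in AB1 and 1.02 ± 0.360 CPM in AE17 tumors. Cdh26, Ifi44l, Unc13c, Tcp11x2 and Ndst4 had means between 12.6 and 41.4 CPM in AB1 and between 0.0297 and 0.436 CPM in AE17. These 10 genes had the same direction in the skin, with log2 fold changes between 5.04 for Cdh26 and 9.73 for Cdhr5. Hoxd10 and Hoxd11 complete the 12 genes and are described with the Hox genes.

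On the AE17 side, Zic5 and Zic2, neighboring zinc finger transcription factor genes of the early nervous system, had no count in any AB1 IPL tumor and averaged 12.5 ± 2.00 CPM and 11.9 ± 2.14 CPM in AE17. Against the limit of 3 counts per library, Zic5 was at least 71.3-fold and Zic2 at least 68.1-fold higher in AE17. Crabp1, a retinoic acid binding protein, averaged 0.238 ± 0.136 CPM in AB1 and 85.3 ± 22.5 CPM in AE17 tumors (log2 fold change -8.44, adjusted p = 1.53e-13). Sema3e, a secreted guidance molecule, averaged 0.193 ± 0.173 CPM in AB1 and 65.1 ± 12.4 CPM in AE17 tumors (log2 fold change -8.28, adjusted p = 1.15e-12). Tbx20, a T-box factor known from the heart, averaged 0.0660 ± 0.0840 CPM in AB1 and 54.3 ± 8.05 CPM in AE17 tumors (log2 fold change -9.54, adjusted p = 2.36e-13). Il24, a cytokine of the interleukin 10 family, averaged 0.0259 ± 0.0277 CPM in AB1 and 44.6 ± 19 CPM in AE17 tumors (log2 fold change -10.38, adjusted p = 1.24e-12). Usp43, Rgs17 and Klra4 averaged 43.6 CPM, 32.7 CPM and 26.4 CPM in AE17 and no more than 0.163 CPM in AB1. Cntnap4 and Bpifb4 had 1 count each over the AB1 libraries, and their ratios of 1508 (95% counting interval 270 to 59626) and 1137 (204 to 44967) are accordingly loose. Cftr, the last of the 12, lies beside Met.

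Met and its neighbors on chromosome 6 formed a compact block of differences. Met (chr6:17463800-17573980 in GRCm38) lay between 24.2 and 94.0 CPM in AB1 tumors (median 76.4) and between 4533 and 8401 CPM in AE17 tumors (median 6726). The 2 sets of tumors were separated by more than an order of magnitude, with a log2 fold change of -6.50 ± 0.26 (adjusted p = 1.45e-12). On one side, Cav1 and Cav2, which encode the coat proteins of caveolae, were both higher in AE17, with 992 ± 222 CPM in AB1 and 6264 ± 1884 CPM in AE17 for Cav1 and 116 ± 34.4 CPM and 2599.6 ± 732 CPM for Cav2. On the other side, Capza2, an actin filament capping subunit, averaged 283 ± 60.9 CPM in AB1 and 6123 ± 1629 CPM in AE17 tumors (log2 fold change -4.42, adjusted p = 8.04e-12), and St7 averaged 24.7 ± 1.73 CPM in AB1 and 391 ± 98.4 CPM in AE17 tumors (log2 fold change -3.97, adjusted p = 1.15e-12). Further on, Wnt2, Cftr and Cttnbp2, which had medians of 0.108, 0 and 0.265 CPM in AB1, averaged 3.71 CPM, 39.0 CPM and 49.3 CPM in AE17. Wnt2 had 2.18 CPM in AB1 IPL 2, and its log2 fold change was -5.50 without that tumor instead of -3.42. From Cav2 to Cttnbp2, a stretch of 1.23 Mb, 9 genes were tested, and 9 of 9 were called higher in AE17 with no overlap, with a median log2 fold change of -4.42 in the pleura and -4.32 in the skin, beside 28.6% of all genes called in that direction. Of 23 other tested genes within 5 Mb of Met, 9 were higher in AE17 and 6 in AB1, with a median of -0.15. Between Tes and Cav1 a pair of non-coding genes, counted among those 23, also had no overlap. D830026I12Rik averaged 0.0192 ± 0.0266 CPM in AB1 and 2.05 ± 0.895 CPM in AE17 tumors, and Gm15581, annotated antisense across Cav2 and Cav1, averaged 0.0327 ± 0.0489 CPM in AB1 and 7.54 ± 11.2 CPM in AE17 tumors (log2 fold change -7.57, and -6.60 without AE17 IPL 4), with AB1 means under the limit of detection. Whether the counting used strand is not given, so that reads of Gm15581 and of Cav2 and Cav1 cannot be told apart. Tes, beyond them, averaged 79.5 ± 16.3 CPM in AB1 and 265 ± 33.1 CPM in AE17 tumors (log2 fold change -1.72, adjusted p = 8.2e-10), whereas Lsm8 beyond Cttnbp2 had 56.4 against 45.4 CPM and Mdfic on the other flank 83.1 against 96.6 CPM (AB1 against AE17 means). The extent of the block was read from these values, and genes other than Met, Wnt2 and Cftr were chosen for it after their values were seen. DNA copy number was not measured.

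**Figure D1:**
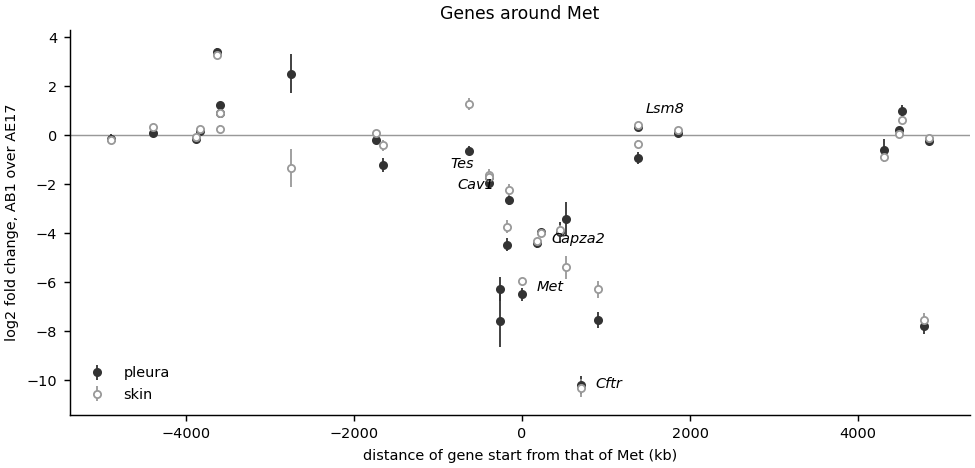
Log2 fold change (AB1 over AE17) of each tested gene by the distance of its start from that of Met, in kb, for pleural and subcutaneous tumors; bars are SE of the fit. The 9 genes from Cav2 to Cttnbp2 have a median of -4.42 in the pleura, and the 23 other genes within 5 Mb have a median of -0.15.

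Of 22 receptor tyrosine kinases and ligands tested, 5 were higher in AB1 and 8 in AE17, beside 30.5% and 28.6% of all genes. Fgfr2 and Fgfr1, receptors of fibroblast growth factors, differed in opposite directions. Fgfr2 lay between 472 and 632 CPM in AB1 tumors (median 518) and between 4.87 and 25.4 CPM in AE17 tumors (median 11.1), and Fgfr1 lay between 12.7 and 33.5 CPM in AB1 tumors (median 23.9) and between 272 and 346 CPM in AE17 tumors (median 334). Neither gene overlapped between the lines (log2 fold changes 5.52 ± 0.27 and -3.75 ± 0.21; adjusted p = 2.39e-11 and adjusted p = 9.33e-11). For Fgfr2 the difference was larger in the pleura than in the skin, by 1.70 ± 0.39 (adjusted p = 0.00279). Erbb2, a receptor of the EGF receptor family, averaged 52.8 ± 7.54 CPM in AB1 and 24.6 ± 1.58 CPM in AE17 tumors (log2 fold change 1.12, adjusted p = 4.48e-09). Egfr itself averaged 29.8 ± 6.11 CPM in AB1 and 35.4 ± 4.08 CPM in AE17 tumors and did not pass the test (adjusted p = 0.103). Areg, a ligand of Egfr, averaged 1.48 ± 0.543 CPM in AB1 and 19.4 ± 7.13 CPM in AE17 tumors (log2 fold change -3.69, adjusted p = 1.78e-09). Kitl, the ligand of Kit, averaged 46.8 ± 18.4 CPM in AB1 and 166 ± 27.1 CPM in AE17 tumors (log2 fold change -1.81, adjusted p = 8.31e-06), while Kit had 15 against 14.5 CPM. Hgf, the ligand of Met, averaged 20.8 ± 7.78 CPM in AB1 and 32.5 ± 5.34 CPM in AE17 tumors (log2 fold change -0.63, adjusted p = 0.0266), with overlap. Pdgfra and Axl were higher in AE17 by 0.43 and 0.44 log2 units.

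Hox genes, which give cells their position along the body axis and keep that pattern in adult mesenchyme, told the lines apart by cluster. Of 38 Hox genes, 33 were tested, of which 14 were higher in AB1 and 14 in AE17, with 11 and 7 of them without overlap. Among all genes the shares were 30.5% and 28.6% called and 13.2% and 15.4% without overlap. The Hoxd cluster on chromosome 2 was higher in AB1 at each of its 7 tested genes. Hoxd13, the most posterior, lay between 77.6 and 109 CPM in AB1 tumors (median 103) and between 0.342 and 2.10 CPM in AE17 tumors (median 1.66), a log2 fold change of 6.08 ± 0.24 (adjusted p = 1.59e-12). Hoxd8 averaged 71.2 ± 7.93 CPM in AB1 and 8.25 ± 2.35 CPM in AE17 tumors, and Hoxd9, Hoxd10 and Hoxd11 averaged 28.5 CPM, 19.2 CPM and 22.7 CPM in AB1 and 1.06 CPM, 0.142 CPM and 0.0451 CPM in AE17. Hoxd3 and Hoxd4 lay at 2.46 against 0.370 CPM and 11.2 against 1.37 CPM. Genes at the posterior end of the other clusters had the opposite direction. Hoxa13 and Hoxb13 had no count in AB1 IPL tumors and averaged 3.09 ± 0.799 CPM and 1.79 ± 0.494 CPM in AE17, and Hoxc11 averaged 0.187 ± 0.117 CPM in AB1 and 7.81 ± 0.859 CPM in AE17 tumors (log2 fold change -5.31, adjusted p = 6.4e-12). Hoxc8 and Hoxc10 were higher in AE17 at 3.48 against 12.1 CPM and 18.1 against 31.2 CPM. Within the Hoxa cluster, Hoxa7 was higher in AB1 (15.9 against 9.52 CPM), whereas Hoxa2, Hoxa3, Hoxa5, Hoxa6, Hoxa10 and Hoxa11 were higher in AE17, with log2 fold changes between -0.93 and -0.43. In the Hoxb cluster, Hoxb3 and Hoxb5 to Hoxb9 were higher in AB1, the most for Hoxb8 (5.09 against 1.62 CPM). Hoxa4, Hoxa9, Hoxb4, Hoxc4 and Hoxc6 did not pass the test, with log2 fold changes between -0.39 and 0.14, and Hoxc5 and Hoxc9 were higher in AE17 (-0.41 and -0.27). The Hoxd difference was larger in the pleura than in the skin for 5 of these 7 genes, by 1.61 ± 0.45 (adjusted p = 0.0109) log2 units for Hoxd3, 1.08 ± 0.28 (adjusted p = 0.00686) for Hoxd4, 1.16 ± 0.25 (adjusted p = 0.00154) for Hoxd8, 2.25 ± 0.36 (adjusted p = 0.000105) for Hoxd9 and 2.87 ± 0.46 (adjusted p = 0.000122) for Hoxd10. For Hoxd11 and Hoxd13 that test did not pass (1.2 ± 0.48 (adjusted p = 0.136) and -0.52 ± 0.32 (adjusted p = 0.272)). Over all 33 tested Hox genes the difference was more positive in the pleura for 8 and more negative for 0, beside 11.9% and 8.62% of all genes.

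**Figure D2:**
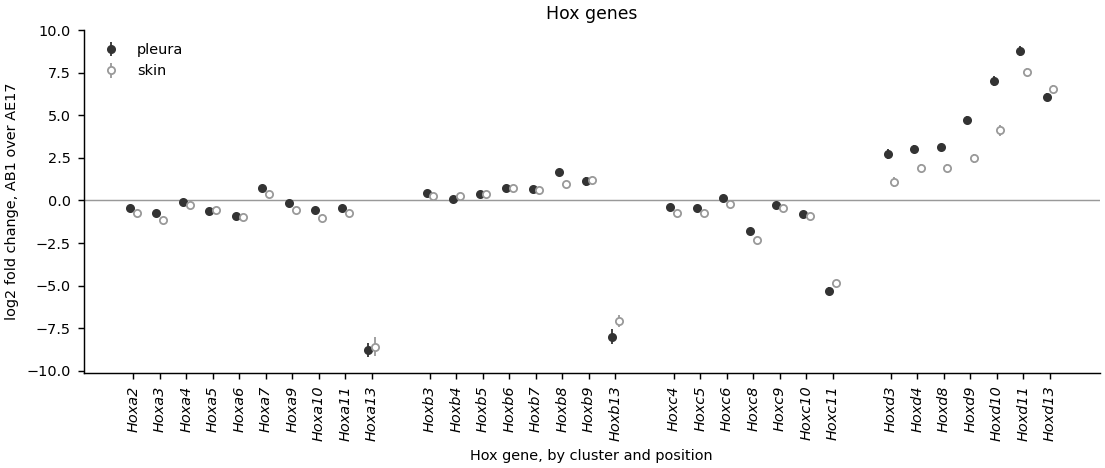
Log2 fold change (AB1 over AE17) of tested Hox genes in pleural and subcutaneous tumors, ordered by cluster and position in the cluster; bars are SE of the fit. The 7 Hoxd genes lie above 0, up to 8.80 for Hoxd11, while Hoxa13, Hoxb13 and Hoxc11 lie below -5, the first 2 of these with no count in AB1, so that their plotted fold change depends on the prior count.

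Of the genes whose loss is typical of mesothelioma, Mtap separated the lines most clearly. It lay between 7.64 and 12.7 CPM in AB1 tumors (median 8.80) and between 79.5 and 105 CPM in AE17 tumors (median 90.8), a log2 fold change of -3.29 ± 0.10 (adjusted p = 3.91e-14). Cdkn2a, its neighbor on chromosome 4, which encodes the cell cycle inhibitors p16 and p19, was low in both lines, at 0.319 ± 0.172 CPM in AB1 and 0.885 ± 0.272 CPM in AE17 (adjusted p = 0.000361), not far above the limit of detection. Nf2, which encodes merlin, was higher in AB1 (164 against 102 CPM; log2 fold change 0.70), and so were Rassf1 (45.3 against 28.9 CPM), Rb1 (32.4 against 23.7 CPM) and Tsc1 (65.4 against 56.3 CPM). Bap1, Trp53, Lats2, Setd2 and Pbrm1 did not pass the test, with log2 fold changes between -0.13 and 0.14. Of 11 p53 target genes, 4 were higher in AB1 and 6 in AE17, beside 30.5% and 28.6% of all genes. Cdkn1a and Mdm2 were higher in AE17 (109 against 203 CPM and 92.9 against 131 CPM), and Ccng1 and Bax in AB1 (224 against 160.3 CPM and 99.6 against 78.5 CPM). Among 10 genes of the Hippo pathway, in which merlin acts, 4 were higher in AE17 and 3 in AB1, near the shares of all genes (28.6% and 30.5%). Its effector Wwtr1 (127 against 183 CPM) and Tead4 (9.12 against 24.3 CPM), a DNA-binding partner, were higher in AE17, whereas Tead2 (123 against 71.8 CPM) and Tead3 (26.6 against 18 CPM) were higher in AB1. The target gene Ctgf was higher in AB1 (62.0 against 29.2 CPM; adjusted p = 0.00111), and Cyr61 had 87.2 against 91.9 CPM and did not pass.

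The label of the tumors as mesothelioma was set beside mesothelial genes. Of 16 listed, 12 had a row and 10 were tested, while Msln, Krt8, Krt18 and Upk1b are not analysed here. Of the 10 genes tested, 2 were higher in AB1 and 2 in AE17, beside 30.5% and 28.6% of all genes. Wt1, Upk3b and Lrrn4, which mark normal mesothelium, had medians of 0.685, 0.135 and 0.108 CPM in AB1 and 2.10, 1.86 and 1.94 CPM in AE17. One AB1 tumor stood out for all 3, AB1 IPL 2, at 11, 31.4 and 23.9 CPM. Without AB1 IPL 2 and AB1 IPL 4, 7 of these 10 genes were called higher in AE17 and 2 in AB1, beside 4760 and 4777 of all 15183 genes tested, and the median log2 fold change was -2.0 instead of 0.24. Pdpn, podoplanin, averaged 105 ± 41.7 CPM in AB1 and 171 ± 30.4 CPM in AE17 tumors (log2 fold change -0.68, adjusted p = 0.00376), and Bnc1 averaged 0.949 ± 1.03 CPM in AB1 and 4.89 ± 1.66 CPM in AE17 tumors (log2 fold change -2.34, adjusted p = 0.000211), with -2.99 without AB1 IPL 2. Cdh2, N-cadherin, averaged 90.8 ± 14.8 CPM in AB1 and 60.0 ± 5.57 CPM in AE17 tumors (log2 fold change 0.62, adjusted p = 1.18e-05), and Tm4sf1 had 267 against 172 CPM. Vim, the filament protein of mesenchymal cells, was higher in AB1 (4091 against 3200.2 CPM; adjusted p = 0.000147), and Cdh1, E-cadherin, had 8.36 against 10.0 CPM and did not pass. Fn1, fibronectin, averaged 4187 ± 839 CPM in AB1 and 1801 ± 292 CPM in AE17 tumors (log2 fold change 1.23, adjusted p = 4.13e-07). Its skin log2 fold change was -0.10, and the difference between the sites was 1.30 ± 0.27 (adjusted p = 0.00122). The tight junction gene Tjp1 was higher in AE17 (109.9 against 232 CPM).

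Wnt ligands act through Frizzled receptors and LRP co-receptors, and the 2 lines differed in ligands, receptors and secreted inhibitors. Of 19 Wnt pathway genes tested, 10 were higher in AE17 and 4 in AB1, beside 28.6% and 30.5% of all genes, with a median log2 fold change of -1.11 beside 0.02 over all genes. Wnt5a, a ligand of the non-canonical branch, lay between 0.366 and 2.66 CPM in AB1 tumors (median 1.17) and between 67.4 and 89.3 CPM in AE17 tumors (median 77.7), a log2 fold change of -5.91 ± 0.27 (adjusted p = 9.94e-12). Wnt5b and Wnt11 had the same direction (1.09 against 5.28 CPM and 0.536 against 6.05 CPM), as had the receptor Fzd1 (10.8 against 77.9 CPM) and the co-receptor Lrp5 (20.5 against 93.5 CPM), while the receptor Fzd2 was higher in AB1 (68.3 against 43.1 CPM). Lgr5, the receptor of R-spondins, averaged 3.24 ± 2.07 CPM in AE17 and had a median of 0.0514 CPM, under the limit of detection, in AB1. Dkk2, which encodes a secreted inhibitor that binds the co-receptors, lay between 264 and 627 CPM in AB1 tumors (median 483) and between 6.84 and 22.1 CPM in AE17 tumors (median 11.8), a log2 fold change of 5.18 ± 0.25 (adjusted p = 1.71e-11). Dkk3 had the same direction (52.8 against 8.97 CPM), and Sfrp1, which binds Wnt ligands, the opposite one (12.9 against 28.5 CPM; adjusted p = 0.0461). Of the target genes, Axin2 was higher in AB1 (19.4 against 12.2 CPM) and Nkd1 in AE17 (0.483 against 3.96 CPM). Compared with the skin, the difference was more positive in the pleura for 10 of 19 genes and more negative for 0, beside 11.9% and 8.62% of all genes, and the skin median was -2.75. Without AB1 IPL 2 and AB1 IPL 4 the pleural median was -2.26. Of 14 ligands and receptors of the TGF-beta family, 7 were higher in AE17 and 1 in AB1, beside 28.6% and 30.5% of all genes. Tgfb2 averaged 3.01 ± 1.18 CPM in AB1 and 33.5 ± 6.17 CPM in AE17 tumors (log2 fold change -3.46, adjusted p = 8.77e-10), and Tgfb1 had 81.7 against 128 CPM. Tgfbr3, a co-receptor, was the gene higher in AB1 (160.4 against 94.1 CPM).

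Of 23 collagen genes tested, 9 were higher in AB1 and 8 in AE17, beside 30.5% and 28.6% of all genes. Col7a1, the collagen of anchoring fibrils, lay between 4.95 and 14.5 CPM in AB1 tumors (median 9.58) and between 562 and 797 CPM in AE17 tumors (median 704), a log2 fold change of -6.16 ± 0.24 (adjusted p = 1.41e-12). Col12a1, a collagen that associates with fibrils, averaged 93.4 ± 33.9 CPM in AB1 and 1089 ± 166 CPM in AE17 tumors (log2 fold change -3.53, adjusted p = 1.23e-10). Col18a1 of basement membranes and Col1a1 of fibrils had the same direction (124 against 418 CPM and 2227 against 4731 CPM). Col6a1 and Col6a2, which form beaded filaments, were higher in AB1 without overlap (2753 against 923 CPM and 2189 against 694 CPM). Col3a1 was also higher in AB1 (13865 against 8371 CPM; adjusted p = 0.00139). Col1a2, the other chain of type I collagen, had 3832 against 2611 CPM (adjusted p = 0.0421), a call that was lost when any of several single tumors was left out. In the skin 16 of 22 collagens were higher in AE17 and 1 in AB1, beside 32.5% and 31.2% of all genes, and the difference was more positive in the pleura for 15 of 23 collagens, beside 11.9% of all genes. The summed collagens lay between 20815 and 48932 CPM in AB1, with the highest value in AB1 IPL 2, and between 20803 and 34733 CPM in AE17, with the highest in AE17 IPL 5.

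Proteases and integrins were more often higher in AE17 than in AB1. Of 16 laminins and matricellular genes 7 were higher in AE17 and 5 in AB1, of 18 proteases and inhibitors 11 and 4, and of 16 integrins 12 and 2, beside 28.6% and 30.5% of all genes. Postn, periostin, lay between 95 and 401 CPM in AB1 tumors (median 287) and between 1582 and 3664 CPM in AE17 tumors (median 2416), a log2 fold change of -3.05 ± 0.25 (adjusted p = 1.49e-08). Tnc, tenascin C, averaged 250.3 ± 73.6 CPM in AB1 and 1402 ± 350.4 CPM in AE17 tumors (log2 fold change -2.47, adjusted p = 1.38e-08). Lama5, a laminin chain, averaged 43.3 ± 8.76 CPM in AB1 and 467 ± 88.6 CPM in AE17 tumors (log2 fold change -3.41, adjusted p = 4.97e-12). Spp1, osteopontin, pointed the other way with 1977 ± 1007 CPM in AB1 and 660.3 ± 71.2 CPM in AE17 (adjusted p = 2.34e-05). Plaur, the receptor of urokinase, was higher in AE17 (61.1 against 194 CPM). Among metalloproteases, Mmp10 (0.986 against 16.8 CPM), Mmp12 (4.89 against 44.0 CPM) and Mmp2 (127 against 314 CPM) were higher in AE17, whereas Mmp9 (125 against 23.8 CPM) and Mmp11 (83.8 against 31.3 CPM) were higher in AB1. The inhibitors Timp1 and Timp3 were higher in AE17 (134 against 296 CPM and 15.8 against 88.9 CPM). Itga11, a collagen receptor subunit, and Itgb3 were higher in AE17 (5.99 against 51.4 CPM and 15.1 against 75.8 CPM), and Itgb4, a subunit of the laminin receptor of hemidesmosomes, was higher in AB1 (27.1 against 3.08 CPM). For Itgb4 the difference was larger in the pleura than in the skin, by 2.83 ± 0.46 (adjusted p = 0.000131), and Mmp12 was lower in AB1 than in AE17 by more in the pleura than in the skin, with a difference of -2.99 ± 0.58 (adjusted p = 0.000731).

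Genes of the type I interferon response were higher in AE17 tumors. Type I interferons act through a complex of transcription factors, among them IRF9, which binds repeats of GAAA in the promoters of antiviral genes. Of 23 genes listed for this response, 20 had a row and 19 were tested, and 19 of 19 were called higher in AE17, 18 of them without overlap, beside 28.6% called and 15.4% without overlap in that direction among all genes. The median log2 fold change was -2.47. Rsad2, the antiviral enzyme viperin, lay between 7.30 and 32.1 CPM in AB1 tumors (median 14.2) and between 359 and 743 CPM in AE17 tumors (median 538), a log2 fold change of -5.08 ± 0.29 (adjusted p = 1.15e-10). Ifit3, which binds viral RNA with its partners, lay between 24.7 and 64.8 CPM in AB1 tumors (median 35.4) and between 415 and 656 CPM in AE17 tumors (median 531), a log2 fold change of -3.71 ± 0.19 (adjusted p = 2.86e-11). Oas3, a sensor of double-stranded RNA, lay between 24.4 and 55.7 CPM in AB1 tumors (median 35.3) and between 176 and 234 CPM in AE17 tumors (median 212), a log2 fold change of -2.47 ± 0.17 (adjusted p = 1.93e-09). In each of these genes the highest AB1 tumor was below the lowest AE17 tumor.

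The promoters of these 3 genes are shown because they carry a pair of GAAA repeats that 2 bases separate, the core of the interferon-stimulated response element, near their start sites. Each runs 5′ to 3′ on the strand of the gene, from 250 bases before to 50 bases after the start, from RefSeq on GRCm38.p6, with capitals on the motif read on either strand.
Rsad2, chr12:26456403-26456702, minus strand: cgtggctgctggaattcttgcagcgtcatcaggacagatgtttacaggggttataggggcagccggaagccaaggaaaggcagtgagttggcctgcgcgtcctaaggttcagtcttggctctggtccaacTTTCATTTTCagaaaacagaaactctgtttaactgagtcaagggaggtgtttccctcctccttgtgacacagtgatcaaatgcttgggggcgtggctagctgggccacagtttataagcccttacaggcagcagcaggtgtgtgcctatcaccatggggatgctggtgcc
Ifit3, chr19:34583279-34583578, plus strand: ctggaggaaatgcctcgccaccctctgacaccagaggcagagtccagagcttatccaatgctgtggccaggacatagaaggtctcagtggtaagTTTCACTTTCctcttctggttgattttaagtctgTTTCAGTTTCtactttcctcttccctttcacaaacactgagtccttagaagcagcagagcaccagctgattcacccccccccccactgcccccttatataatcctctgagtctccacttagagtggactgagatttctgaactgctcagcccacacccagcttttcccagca
Oas3, chr5:120777610-120777909, minus strand: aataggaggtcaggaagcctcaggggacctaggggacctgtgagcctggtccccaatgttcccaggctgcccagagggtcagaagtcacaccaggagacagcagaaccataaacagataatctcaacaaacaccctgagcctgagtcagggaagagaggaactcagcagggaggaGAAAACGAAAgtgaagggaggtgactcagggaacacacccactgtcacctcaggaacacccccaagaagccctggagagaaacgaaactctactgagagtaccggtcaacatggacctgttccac

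Ifit3 held 2 matches. The motif was searched on both strands in 300 bases of promoter and occurred in 8 of 14 type I interferon response genes with a promoter sequence (57.1%), and in 3.99% of 27025 genes with one. It occurred in 9 of 12 interferon-gamma response genes (75.0%). In 7 genes of cholesterol synthesis it was in none. A match describes the letters and not a site in use.

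Other genes of the type I response had the same direction. Ifit1, Mx1 and Oasl1 had 25.9 against 246 CPM, 17.3 against 206 CPM and 19 against 197 CPM (AB1 against AE17 means), and the sensors Ifih1 and Ddx58 26.3 against 203 CPM and 80.8 against 396 CPM. Irf7, the factor that sustains interferon production, averaged 112 ± 19 CPM in AB1 and 389 ± 55.6 CPM in AE17 tumors (log2 fold change -1.77, adjusted p = 4.81e-10). Irf9 had one of the smallest differences, with 90.6 against 135 CPM. Ifnb1, which encodes interferon beta, was listed but too low to be tested. The same list was higher in AE17 in the skin, where 16 of 19 were called higher in AE17 and 1 in AB1, beside 32.5% and 31.2% of all genes, with a median of -1.46, and the AB1 to AE17 difference was more negative in the pleura for 18 of 19 genes, beside 8.62% of all genes. With tissue marker scores as covariates 18 of 19 were called, with a median of -2.49, in a fit that called 4891 genes in all. Ifi44l and Ifi202b, interferon-inducible genes outside this list, were higher in AB1 (28 against 0.103 CPM and 72.2 against 2.78 CPM), and Ifi202b is known to vary between strains.

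Genes of the interferon-gamma response had a smaller median difference. Of 16 tested, 9 were higher in AE17 and 1 in AB1, beside 28.6% and 30.5% of all genes, with a median of -0.65. Cxcl10, a chemokine that draws activated T cells, lay between 46.3 and 114 CPM in AB1 tumors (median 64.4) and between 365 and 662 CPM in AE17 tumors (median 480.1), a log2 fold change of -2.77 ± 0.17 (adjusted p = 4.39e-10). Gbp2, a guanylate-binding protein, averaged 293 ± 100.0 CPM in AB1 and 701 ± 86.7 CPM in AE17 tumors (log2 fold change -1.24, adjusted p = 1.3e-05). Ido1 and Cd274, which restrain T cells, were higher in AE17 (8.96 against 29.3 CPM and 60.7 against 95.3 CPM). Irf1 was the gene higher in AB1 (344 against 245 CPM), and Cxcl9 and Cxcl11 had 216 against 151 CPM and 12.5 against 12 CPM and did not pass the test. In the skin the direction of this list was the opposite: 13 of 16 were higher in AB1 and 1 in AE17, beside 31.2% and 32.5% of all genes, with a median of 0.81. The difference between the sites passed the test in 16 of 16 genes, all more negative in the pleura, beside 8.62% of all genes.

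Genes of antigen presentation by MHC class I had a more negative difference in the pleura than in the skin as well. Of 16 genes tested, 8 were higher in AE17 and none in AB1 in the pleura, beside 28.6% and 30.5% of all genes, 12 were higher in AB1 and none in AE17 in the skin, beside 31.2% and 32.5%, and the difference between the sites passed in 16 of 16, beside 20.5%. B2m, the invariant chain, lay between 1233 and 1784 CPM in AB1 tumors (median 1593) and between 2583 and 3234 CPM in AE17 tumors (median 2992), a log2 fold change of -0.93 ± 0.09 (adjusted p = 5.68e-08). H2-K1 had 1112 ± 214 CPM and 2369.8 ± 219 CPM, and H2-D1 had 1872 ± 391 CPM and 2005 ± 169.7 CPM (adjusted p = 0.594). Nlrc5, the activator of class I genes, averaged 229 ± 62.8 CPM in AB1 and 384 ± 36.1 CPM in AE17 tumors (log2 fold change -0.72, adjusted p = 0.000322). Tap1, Tap2, Psmb8, Psmb9 and Psmb10, which supply peptides, did not pass the test in the pleura, with log2 fold changes between -0.26 and 0.27. H2 genes are polymorphic between BALB/c and C57BL/6 and were counted on a C57BL/6 reference, so that allele and expression cannot be told apart for them. Over all 33 tested genes with an H2 symbol, class II genes and pseudogenes included, 12 were higher in AB1 and 12 in AE17. Among those outside the list, H2-Q2 (194 against 16.2 CPM), H2-Q1 (191 against 68.6 CPM), H2-K2 (126 against 20.2 CPM), H2-Q10 (171 against 93.4 CPM), H2-Bl (61.0 against 27.6 CPM) and H2-T3 (5.78 against 1.80 CPM) were higher in AB1, and H2-Q5 (93.0 against 162 CPM) and H2-Eb2 (0.204 against 2.31 CPM) were higher in AE17. AB1 IPL 8 had the lowest summed class I level, 4838 CPM, and the other AB1 tumors lay between 6854 and 8762 CPM, while AE17 tumors lay between 9768 and 12880.0 CPM.

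T cell genes were higher in AE17 tumors in the pleura. In whole tumors, fewer cells of a type and less RNA per cell cannot be told apart. Of 16 T cell genes 13 were higher in AE17 and none in AB1 (median -0.97), and of 7 cytotoxic effector genes 5 and none (median -0.91), beside 28.6% of all genes called higher in AE17 and 30.5% in AB1. Cd8a, the co-receptor of cytotoxic T cells, lay between 3.08 and 24.4 CPM in AB1 tumors (median 13.2) and between 28.2 and 55.3 CPM in AE17 tumors (median 46.9), a log2 fold change of -1.72 ± 0.31 (adjusted p = 0.000132). Trac, the constant part of the T cell receptor alpha chain, averaged 7.09 ± 2.73 CPM in AB1 and 21.9 ± 5.86 CPM in AE17 tumors (log2 fold change -1.60, adjusted p = 2.5e-05). Cd3e, of the receptor complex, averaged 6.00 ± 3.05 CPM in AB1 and 12.2 ± 3.62 CPM in AE17 tumors (log2 fold change -1.0, adjusted p = 0.0101), with overlap between the lines. Ccl5, a chemokine of effector T cells, averaged 17.2 ± 6.24 CPM in AB1 and 82.2 ± 20.8 CPM in AE17 tumors (log2 fold change -2.23, adjusted p = 3.27e-07). Cd4 and Tcf7 had 8.44 against 9.40 CPM and 18.7 against 19.5 CPM and did not pass the test. Of 13 checkpoint genes 10 were higher in AE17, beside 28.6% of all genes, among them Pdcd1 (8.64 against 18.8 CPM), Lag3 (7.97 against 14.2 CPM) and Havcr2 (17.4 against 38.9 CPM). Foxp3, the factor of regulatory T cells, was higher in AB1 (4.87 against 2.96 CPM; adjusted p = 0.0202), while 3 of the 8 genes of that list were higher in AE17. In the skin the medians of the T cell and effector lists were 0.72 and 1.05, and the difference was more negative in the pleura for 13 of 16 and 7 of 7 genes, beside 8.62% of all genes. Cd8a had a skin log2 fold change of 0.98 and a difference of -2.72 ± 0.62 (adjusted p = 0.00279). Summed T cell genes lay between 77.7 and 211 CPM in AB1 IPL tumors and between 150.4 and 398 CPM in AE17 IPL tumors, with overlap, and the highest AE17 tumors, AE17 IPL 5 and AE17 IPL 8, also had the highest B cell sums. Without AE17 IPL 1, 5 and 8 the T cell count was 10 of 16, in a fit that called at least 6323 genes in all. Of 12 NK cell genes 8 were higher in AE17, beside 28.6% of all genes, and Ncr1, which encodes the receptor NKp46, was higher in AB1 (7.28 against 3.09 CPM; adjusted p = 8.63e-05). Klra4, Klra7 and Klra8 belong to the Ly49 family, which differs in gene content between these strains.

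**Figure D3:**
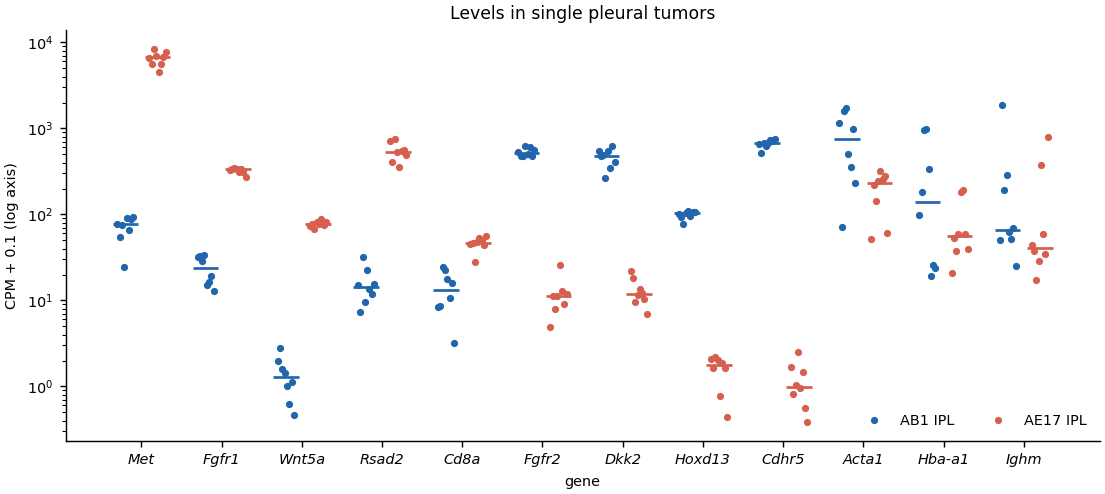
CPM on a log axis in each of the 16 pleural tumors for 12 genes, with AB1 in one color and AE17 in the other; horizontal lines are medians, and 0.1 CPM was added for display. Met, Fgfr1, Wnt5a, Rsad2 and Cd8a are higher in AE17 without overlap, Fgfr2, Dkk2, Hoxd13 and Cdhr5 are higher in AB1 without overlap, and Acta1, Hba-a1 and Ighm overlap.

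**Figure D4:**
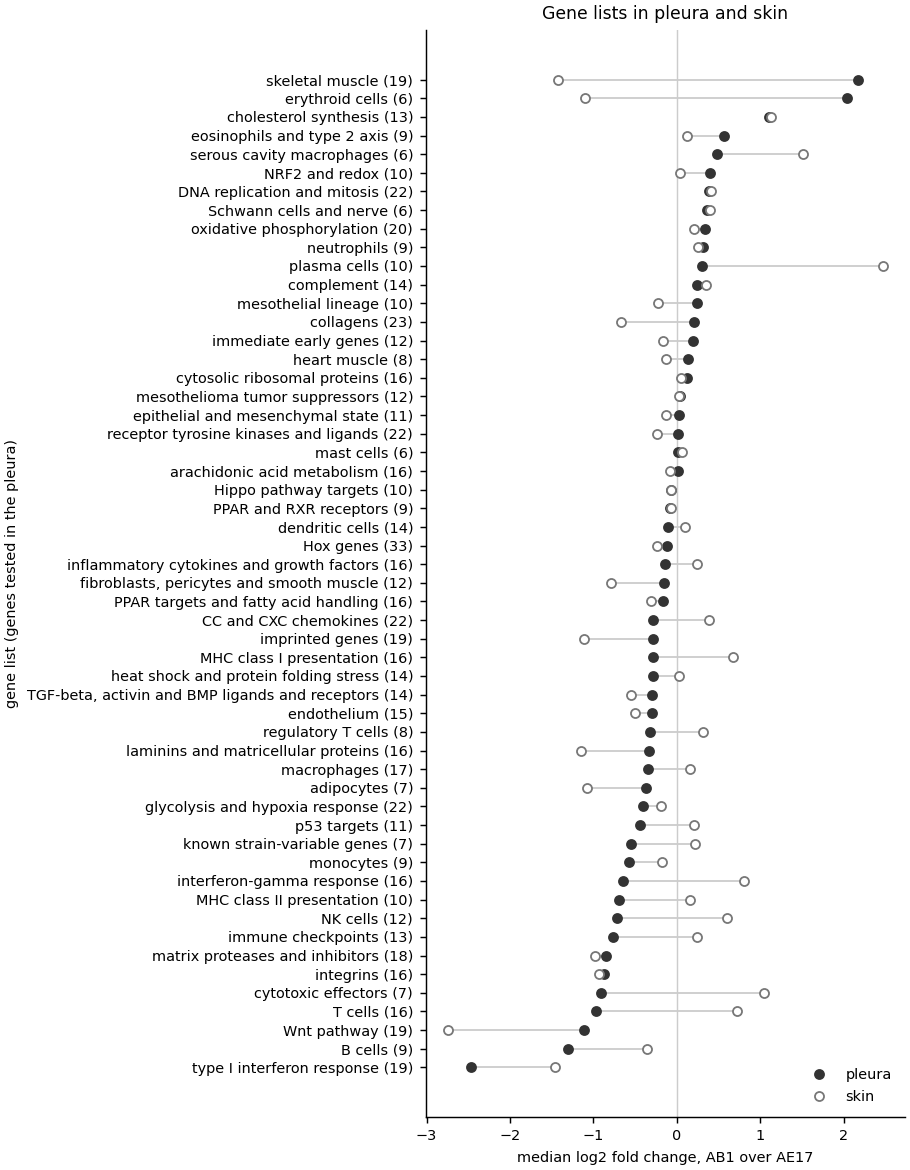
Median log2 fold change (AB1 over AE17) of the tested genes of each list, in the pleura and in the skin, as points without error bars, for lists with at least 6 genes tested in the pleura and 4 in the skin. Type I interferon genes lie below 0 at both sites, T cell and interferon-gamma genes lie below 0 in the pleura and above 0 in the skin, and skeletal muscle genes lie above 0 in the pleura and below 0 in the skin.

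Macrophage genes were read beside the background of 59.1% of genes called. Csf1r, the receptor that macrophages depend on, lay between 316 and 475 CPM in AB1 tumors (median 344) and between 335 and 389 CPM in AE17 tumors (median 359) and did not pass the test (adjusted p = 0.529). Of 17 macrophage genes 7 were higher in AE17 and 2 in AB1, beside 28.6% and 30.5% of all genes, with a median of -0.34. Mertk, a receptor for apoptotic cells, averaged 18.4 ± 3.52 CPM in AB1 and 57.8 ± 10.2 CPM in AE17 tumors (log2 fold change -1.64, adjusted p = 4.46e-09), and Mrc1, the mannose receptor, had 187 against 304 CPM. Trem2 was higher in AB1 (49.3 against 40.0 CPM). Of 9 monocyte genes 5 were higher in AE17 and 1 in AB1. The monocyte chemokines Ccl2 and Ccl7 were higher in AE17 (149 against 268 CPM and 56.9 against 174 CPM), whereas Ccl8 was higher in AB1 (201 against 115 CPM). For Ccl2 the skin log2 fold change had the opposite sign, 1.18, with a difference of -2.04 ± 0.27 (adjusted p = 2.89e-05). Cx3cl1, a membrane-bound chemokine, averaged 149 ± 21 CPM in AB1 and 45.4 ± 8.89 CPM in AE17 tumors (log2 fold change 1.73, adjusted p = 3.09e-09). Il18, a cytokine of the inflammasome, lay between 1.67 and 4.69 CPM in AB1 tumors (median 2.19) and between 23.1 and 36.5 CPM in AE17 tumors (median 31.8), a log2 fold change of -3.62 ± 0.18 (adjusted p = 2.75e-11). Vegfc, which drives lymphatic growth, had 1.63 against 12.3 CPM, and the lymphatic receptor gene Flt4 had 5.59 against 15.8 CPM. Of 15 endothelial genes 5 were higher in AE17 and none in AB1, with Pecam1 at 60.2 against 57.6 CPM (adjusted p = 0.676). Of 14 dendritic cell genes 6 were higher in AE17, among them Itgax (24.2 against 77.6 CPM), and 2 in AB1, among them Xcr1 (11.6 against 6.22 CPM). Tpsab1, a mast cell tryptase, averaged 65.7 ± 30.5 CPM in AB1 and 6.04 ± 3.09 CPM in AE17 tumors (log2 fold change 3.46, adjusted p = 4.52e-06), while Cpa3 of the same cells had 22.3 against 38.3 CPM and did not pass.

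B cell and plasma cell genes were high in single tumors. Summed plasma cell genes reached 2746 CPM in AB1 IPL 2 and 1126 CPM in AB1 IPL 4, and 1944 and 1752 CPM in AE17 IPL 5 and AE17 IPL 8, and lay between 265 and 595 CPM in the other AB1 and between 495 and 623 CPM in the other AE17 tumors. Ighm lay between 25 and 1870.0 CPM in AB1 tumors (median 65.9) and between 17.1 and 805 CPM in AE17 tumors (median 41.1), and did not pass the test. Of 9 B cell genes 4 were higher in AE17 and none in AB1, beside 28.6% and 30.5% of all genes, and without AE17 IPL 1, 5 and 8 the counts were 1 and 5. Pax5 was the exception. This B cell factor lay between 1.91 and 10.9 CPM in AB1 tumors (median 3.70) and between 48.7 and 109 CPM in AE17 tumors (median 78.1), without overlap. Its skin log2 fold change was -3.35. Sdc1, a syndecan that marks plasma cells and is also made by other cells, had 107 against 349 CPM, again without overlap (adjusted p = 4.86e-09).

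Genes known to differ between BALB/c and C57BL/6 are given apart, since strain and line cannot be told apart. H2-Ea-ps, the class II gene that is not transcribed in C57BL/6, lay between 112 and 508 CPM in AB1 tumors (median 433) and between 0 and 0.954 CPM in AE17 tumors (median 0.0863). H2-Aa, H2-Ab1 and H2-Eb1 were higher in AE17 (436 against 872 CPM, 379.9 against 643 CPM and 452 against 714 CPM; adjusted p between 0.00289 and 0.0481), with overlap. Ifi202b averaged 72.2 ± 29.3 CPM in AB1 and 2.78 ± 1.10 CPM in AE17 tumors (log2 fold change 4.71, adjusted p = 1.79e-09), and Klra8 had 0.151 against 1.74 CPM. Ly6a averaged 299 ± 103 CPM in AB1 and 750.0 ± 106 CPM in AE17 tumors (log2 fold change -1.31, adjusted p = 2e-05). Nnt, which carries a deletion in one substrain of C57BL/6, was counted in both strains at 91.5 against 76.5 CPM. Among 192 called genes with no overlap and a fold change of at least 5 log2 units, 28 (14.6%) were processed pseudogenes, beside 10.1% of the tested genes, and for these sequence and level cannot be told apart.

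Y-linked genes were counted in every library although the methods name female mice, and Xist separated the lines. Xist, transcribed from the inactive X chromosome of females, lay between 0.0527 and 0.446 CPM in AB1 tumors (median 0.265) and between 980.3 and 2146 CPM in AE17 tumors (median 1707), a log2 fold change of -12.57 ± 0.29 (adjusted p = 3.49e-15). Of the Y-linked genes, Ddx3y lay between 4.95 and 26.8 CPM in AB1 tumors (median 14.9) and between 20.0 and 50.6 CPM in AE17 tumors (median 25.8), and the means of Kdm5d, Eif2s3y and Uty were 7.41 against 11.3 CPM, 10.7 against 19.4 CPM and 4.56 against 7.87 CPM. These 4 genes were higher in AE17 in the pleura (adjusted p between 0.00559 and 0.0296) and had skin log2 fold changes between -0.08 and 0.17. The calls of Ddx3y, Uty and Kdm5d were lost without AE17 IPL 5 (log2 fold changes of -0.64, -0.65 and -0.49), those of Ddx3y (-0.71) and Uty (-0.66) also without AB1 IPL 7 and that of Uty (-0.73) without AB1 IPL 6. With the 3 AE17 tumors of lane 1 alone none of the 4 was called, nor with tissue scores as covariates. Csf1r of macrophages lay between 316 and 475 CPM in the same 8 AB1 IPL tumors, and the cause of their low Xist values was not tested. In AB1 SC tumors Xist reached at most 3.83 CPM. In AE17 tumors, RNA of the mouse and of the line cannot be told apart for these genes.

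Skeletal muscle genes varied over a wide range within each line and were higher in AB1 tumors on average. Acta1, skeletal muscle actin, lay between 71.2 and 1728 CPM in AB1 tumors (median 748) and between 51.7 and 316 CPM in AE17 tumors (median 231), and Ckm, muscle creatine kinase, between 6.87 and 594 CPM in AB1 tumors (median 208) and between 0 and 57.4 CPM in AE17 tumors (median 18), with overlap for both. Of 19 muscle genes 13 were higher in AB1 and none in AE17, with a median of 2.17, and 0 of 19 were without overlap, beside 30.5% called and 13.2% without overlap in that direction among all genes. The sum of the list lay between 135 and 6566 CPM in AB1 and between 63.0 and 1162 CPM in AE17 tumors. In the skin 4 were higher in AE17 and none in AB1 (median -1.42), beside 32.5% and 31.2% of all genes, and 12 of 19 had a more positive difference in the pleura, beside 11.9%. Without AB1 IPL 3, 4 and 5, 4 of 19 were called. With the AE17 tumors of 1 lane, 2 were called, and with those of the other lane 8. Each of these fits called at least 6323 genes in all, beside 8793 with all tumors kept. Erythroid genes were high in AB1 IPL 3, 4 and 5, with sums of 3442, 3542 and 1158 CPM, and between 73.8 and 705 CPM in AE17. Hba-a1, a hemoglobin chain, averaged 326 ± 408 CPM in AB1 and 80.1 ± 66.7 CPM in AE17 tumors (log2 fold change 2.05, adjusted p = 0.0473). Of 6 erythroid genes 4 were higher in AB1, and without these 3 tumors the median log2 fold change of the list was -0.44 instead of 2.04. Neutrophil genes were highest in the same AB1 tumors, at 736, 469.6 and 200.2 CPM, and between 22.2 and 116 CPM in the other AB1 and between 54.1 and 80.4 CPM in AE17 tumors. Adipoq, of fat cells, lay between 0.409 and 41.4 CPM in AB1 tumors (median 5.11) and between 0 and 109 CPM in AE17 tumors (median 0.493) and did not pass (adjusted p = 0.861). The summed fat list lay between 71.5 and 779 CPM in AB1 (median 213) and between 59.6 and 2067 CPM in AE17 tumors (median 88.6). Of 11 lung epithelial genes with a row, 3 were tested. Ager (1.69 against 5.22 CPM) and Hopx (1.62 against 25.3 CPM), which alveolar and other epithelia express, were higher in AE17 without overlap, and Napsa (14.9 against 17.5 CPM) did not pass. The surfactant genes Sftpa1 and Sftpb and the airway gene Scgb1a1 were too low to be tested. The summed list lay between 11.9 and 33.8 CPM in AB1 and between 44.4 and 56.0 CPM in AE17 tumors. Of eosinophil genes, Prg2, a granule protein, lay between 0.233 and 46.6 CPM in AB1 tumors (median 3.36) and between 0 and 0.726 CPM in AE17 tumors (median 0.0607) and was removed by the minimum set on counts, whereas Ccl11, eotaxin, averaged 12.4 ± 3.42 CPM in AB1 and 3.34 ± 2.22 CPM in AE17 tumors (log2 fold change 1.91, adjusted p = 0.000285). The fit with tissue scores as covariates held skeletal muscle, heart muscle, fat and lung epithelium, but no red cells, neutrophils or eosinophils. The part of each tissue in the other results was not tested.

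**Figure D5:**
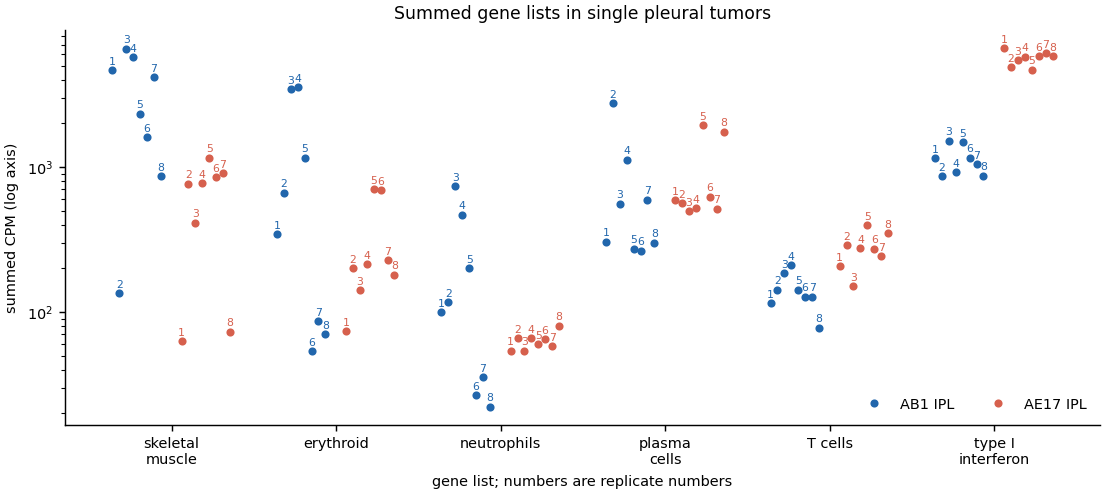
Summed CPM of the skeletal muscle, erythroid, neutrophil, plasma cell, T cell and type I interferon lists in each of the 16 pleural tumors, on a log axis, one point per tumor with the replicate number beside it. Erythroid and neutrophil sums are highest in AB1 IPL 3, 4 and 5, plasma cell sums in AB1 IPL 2 and AE17 IPL 5 and 8, and the type I interferon sums of the lines do not overlap.

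Genes of cholesterol synthesis were higher in AB1 tumors at both sites. Of 13 tested, 9 were higher in AB1 and 1 in AE17, beside 30.5% and 28.6% of all genes, with a median of 1.10 in the pleura and 1.12 in the skin. Fdps, which makes farnesyl diphosphate, lay between 47.9 and 116 CPM in AB1 tumors (median 64.4) and between 16.8 and 38.7 CPM in AE17 tumors (median 24.9), a log2 fold change of 1.54 ± 0.20 (adjusted p = 4.26e-06). Insig1, a sterol sensor, and Mvd had 141 against 48.8 CPM and 43.7 against 16.3 CPM. Sc5d was the gene higher in AE17 (46.9 against 63.0 CPM; adjusted p = 0.0329). Genes of glycolysis and the hypoxia response were more often higher in AE17, with 11 of 22 against 4, beside 28.6% and 30.5% of all genes. Slc2a1, the glucose transporter GLUT1, lay between 30.7 and 101 CPM in AB1 tumors (median 69.8) and between 183 and 355 CPM in AE17 tumors (median 309), a log2 fold change of -2.08 ± 0.20 (adjusted p = 8.43e-08). Slc16a3, which exports lactate, and Pfkp had 24.2 against 141 CPM and 105 against 266 CPM, while Aldoa was higher in AB1 (1342 against 855 CPM). Genes of oxidative phosphorylation were higher in AB1 by small amounts: 17 of 20 passed, beside 30.5% of all genes, with a median of 0.34, and Sdha alone was higher in AE17 (203 against 271 CPM). Sdhb (130.2 against 72.6 CPM) and Ndufa4 (161 against 99.7 CPM) had the largest differences in favor of AB1. With the 3 AE17 tumors of lane 1 alone 6 of 20 passed, with a median of 0.30. That fit called 6323 genes in all, beside 8793 with all AE17 tumors.

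Genes of cell division were more often higher in AB1 than in AE17. Of 22 tested, 14 were higher in AB1 and 1 in AE17, beside 30.5% and 28.6% of all genes, with a median of 0.38 in the pleura and 0.41 in the skin. Ccnd1, cyclin D1, lay between 508 and 814 CPM in AB1 tumors (median 640.3) and between 239 and 302 CPM in AE17 tumors (median 258), a log2 fold change of 1.35 ± 0.11 (adjusted p = 9.53e-09). Ccna2 and Mcm5 had 208 against 120.3 CPM and 268 against 165 CPM. Mki67 averaged 595 ± 285 CPM in AB1 and 340.1 ± 67.2 CPM in AE17 tumors (log2 fold change 0.82, adjusted p = 0.0308), with overlap, and Ccne1, cyclin E1, was the gene higher in AE17 (23.7 against 34.9 CPM). Myc averaged 77.3 ± 19.1 CPM in AB1 and 253 ± 52.4 CPM in AE17 tumors (log2 fold change -1.69, adjusted p = 4.85e-08), without overlap, and Atf3 and Klf4 had the same direction (11.6 against 44.2 CPM and 13.4 against 34.3 CPM). Ppard, a nuclear receptor for fatty acids, lay between 31.7 and 48.8 CPM in AB1 tumors (median 41.0) and between 65.6 and 92.0 CPM in AE17 tumors (median 82.4), a log2 fold change of -1.03 ± 0.09 (adjusted p = 4.28e-08), Pparg had 5.01 against 6.40 CPM and did not pass (adjusted p = 0.473), and Ppara was too low to be tested. Ppargc1a, a co-activator of these receptors, lay between 1.54 and 5.69 CPM in AB1 tumors (median 4.52) and between 0 and 4.24 CPM in AE17 tumors (median 0.0606), a log2 fold change of 2.75 ± 0.81 (adjusted p = 0.00738), and without AE17 IPL 5, the highest AE17 tumor, of 5.49. Of 16 PPAR targets and fatty acid genes 3 were higher in AB1 and 4 in AE17, beside 30.5% and 28.6% of all genes. Plin2, a lipid droplet coat protein, and Fabp5 were higher in AE17 (139 against 296 CPM and 21 against 64.7 CPM). Pdk4 lay between 3.78 and 161 CPM in AB1 tumors (median 38.1) and between 10.2 and 93.8 CPM in AE17 tumors (median 16.8) and did not pass in the pleura (adjusted p = 0.141) unless AE17 IPL 5 was left out (log2 fold change 1.86 instead of 1.22), and its difference from the skin was 4.03 ± 0.90 (adjusted p = 0.00249). Of 16 genes of arachidonic acid metabolism 4 were higher in AB1 and 2 in AE17. Pla2g7 was higher in AE17 (60.1 against 169 CPM), as was Cyp4f18 (3.41 against 33.3 CPM), and Pla2g4a in AB1 (48.3 against 27.8 CPM).

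In the remaining lists single genes had large differences, and their counts are to be read beside the 30.5% of all genes that were higher in AB1 and the 28.6% that were higher in AE17. Of 10 genes of the NRF2 response 6 were higher in AB1, the most for Gstm2, a glutathione transferase (55.8 against 7.59 CPM), and 2 in AE17, with Srxn1 at 46.2 against 99.1 CPM. Of 14 stress genes 4 were higher in AE17, among them Hspb1 (38.3 against 183 CPM), and 1 in AB1, Asns (135 against 76.3 CPM). Of 16 ribosomal protein genes 6 were higher in AB1 and 3 in AE17, with a median of 0.13. Rps2 was low in AB1 (56.8 against 179 CPM), a value that is uncertain because ribosomal protein genes have many processed copies. Of 19 imprinted genes 5 were higher in AE17, among them Mest (18.8 against 109 CPM) and Igf2r (167 against 347 CPM), and 1 in AB1, Peg13 (33.8 against 12.9 CPM), while H19 lay between 12.6 and 544 CPM in AB1 tumors (median 169) and between 5.64 and 141 CPM in AE17 tumors (median 89.8) and did not pass. Of 14 complement genes 4 were higher in AB1, among them C1s1 (339 against 143 CPM), and 3 in AE17, among them Cfb (6.37 against 16 CPM). Of 12 genes of fibroblasts, pericytes and smooth muscle 2 were higher in AB1 and 4 in AE17. Compared with the skin, 7 of these 12 had a more positive difference in the pleura and 1 a more negative one, beside 11.9% and 8.62% of all genes. Sycp1, of meiosis, averaged 3.5 ± 1.91 CPM in AB1 and 0.0150 ± 0.0277 CPM in AE17, and Xlr3a, an X-linked gene of lymphoid and germ cells, 0.482 ± 0.451 CPM and 11 ± 1.35 CPM. Garnl3, listed as a gene of serous cavity macrophages, averaged 23.4 ± 2.35 CPM in AB1 and 2.29 ± 1.01 CPM in AE17 tumors (log2 fold change 3.36, adjusted p = 2.46e-10). Pi16, which marks adventitial fibroblasts, lay between 65.4 and 208 CPM in AB1 tumors (median 121) and between 2.02 and 44.6 CPM in AE17 tumors (median 4.49), without overlap (log2 fold change 3.69, and 4.79 without AE17 IPL 5), and Pdgfrb had 152 against 156 CPM (adjusted p = 0.853).

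Differences were not spread evenly over the chromosomes. The median log2 fold change of each chromosome was compared with that of all genes, as a description without a test. Fold changes in the pleura also rose with GC content, with medians from -0.13 in the lowest of 5 GC bins to 0.14 in the highest. The chromosome medians were not corrected for this. Among autosomes, chromosome 16 stood lowest, at -0.52 in the pleura and -0.46 in the skin, with 244 of 396 genes called higher in AE17 and 43 in AB1, beside 28.6% and 30.5% of all genes. Chromosomes 4 and 13 followed at -0.21 each. The 8 tested genes of the Y chromosome had a median of -0.73 in the pleura and 0.09 in the skin. Chromosomes 8 and 7 stood highest, at 0.22 and 0.18, with 407 of 873 and 567 of 1363 genes called higher in AB1, beside 30.5% of all genes. Over windows of 50 neighboring tested genes, the lowest medians were -0.84 at chr16:45382135-75767104 and -0.83 at chr16:33684370-44558897. Within these, Robo1, a guidance receptor, had 1.08 against 4.43 CPM, Senp7 10.8 against 38.8 CPM and Boc 5.32 against 34.6 CPM. Parp14 averaged 138 ± 50.1 CPM in AB1 and 491 ± 42.1 CPM in AE17 tumors (log2 fold change -1.81, adjusted p = 4.58e-07). The third window, chr13:19214103-24477377 at -0.69, holds a cluster of histone genes, among them Hist1h1c (22.8 against 170.1 CPM) and Hist1h2bc (9.15 against 52.5 CPM). The highest windows were chr4:149334639-154160666 at 0.72, which holds Clstn1 (248 against 76.5 CPM) and Wrap73 (32.4 against 13 CPM), chr7:141160326-143071093 at 0.68, which holds Cdhr5, and chr7:126623249-127406822 at 0.64, which holds Spn (149.7 against 40.1 CPM). In the skin the same 6 windows had medians of -0.50, -0.66, -0.53, 0.29, 0.42 and 0.64 in this order. The former of these chromosome 7 windows also holds the muscle genes Tnni2 and Tnnt3, which varied between single tumors like the other muscle genes.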

How the data were processed

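RNA of 32 whole tumors was sequenced as 50 bp single-end polyA libraries. The authors demultiplexed the reads with bcl2fastq 1.8.4, aligned them with HISAT2 2.0.4 and counted them per gene with SummarizeOverlaps, and deposited a table of raw counts with 1 column per tumor and replicates not pooled; whether counting used strand is not given in the sources used here. The methods write the genome as mm11. Of 39676 gene identifiers, 39495 matched GENCODE M21 (GRCm38) without version and 36719 with it, so names and coordinates are given on GRCm38. Genes with many near-identical copies, such as pseudogenes and H2 genes, are uncertain in such counts.

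Columns were matched to samples by the labels. AB1 IPL and AE17 IPL tumors were compared with edgeR 4.0.16 (limma 3.58.1, R 4.3.3) after filterByExpr, with TMM scaling and the robust quasi-likelihood test; the comparison was repeated in SC tumors, and the difference of the differences was fitted over 32 tumors. CPM levels use TMM library sizes, and log2 CPM a prior count of 2. Alternatives included DESeq2 1.42.0, limma-voom and those named with their effects. A gene was called at a Benjamini-Hochberg adjusted p under 0.05. The labels do not say which tumors shared a cell preparation or day, and p-values measure only the spread between these tumors. On simulated data for the pleural comparison (14746 genes), 46 of 50 and 50 of 50 genes changed by 2 log2 units down and up, 36 of 50 and 42 of 50 changed by 1, and 6 of 14546 unchanged genes were called. In 56 pairs of libraries within groups the chi-square per degree of freedom was at least 6.36, so that no pair was a duplicate. No gene differed between the 2 lanes of AE17 IPL at an adjusted p under 0.05 (edgeR; 568 of 15131 at an unadjusted p under 0.05).

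The comparison and its 59 gene lists were chosen with earlier results of these data known. The genes named were the 12 with the largest fold change in each direction (called, without overlap, protein coding, at least 5 CPM in the higher group, no Gm or Rik symbol), the first 4 members and the 3 with the largest fold change per direction of each list, lists of 8 or fewer genes, up to 5 genes per chromosome segment, and Hox, H2, sex-chromosome and tumor suppressor genes. Cav1, Cav2, D830026I12Rik, Gm15581, Capza2, St7, Cttnbp2, Tes, Lsm8, Mdfic, Kitl, Hgf, Fzd1, Lrp5, Fzd2, Sfrp1, Nkd1, Col18a1, Col6a1, Tnc, Plaur, Timp1, Timp3, Itgb3, Oas3, Mx1, Oasl1, Ifih1, Ddx58, Irf7, Irf9, Cd4, Tcf7, Lag3, Havcr2, Ccl7, Ccl8, Prg2, Pfkp, Aldoa, Mcm5 and Igf2r, and the genes of the closing observations, were chosen after their values were seen. Some genes that this rule names are not reported here. Log2 fold changes are AB1 over AE17, and limits of detection cover counting error only.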

Additional observations from a re-analysis of the deposited data

Results flagged for a closer look

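Among 568 groups of 8 tumors, 80 values stood apart from the other 7 of their group by Dixon's test, which flags about 1 in 20 groups by chance. They are given as CPM. In AB1 IPL 4, the tumor whose departure followed GC content, the genes were Met (24.2), Cav1 (497), Cav2 (44.0), Capza2 (149), Mdfic (53.9), Kitl (11.1), Hgf (5.32), Rb1 (13.1), Bap1 (109), Pbrm1 (44.1), Mdm2 (54.1), Tjp1 (44.5), Postn (95), Ifih1 (9.11), Ifi202b (18.3), Mrc1 (66.2), Tpsab1 (13), Cpa3 (1.63), Aldoa (1699) and Pla2g4a (17.2). In AB1 IPL 8, mainly in genes of antigen presentation, the genes were Baiap2l1 (1402), Irf9 (66.2), H2-K1 (678), H2-D1 (1115), Tap1 (175), Tap2 (108), Psmb9 (67.9), H2-Q10 (106), H2-Q5 (55.9), Ccl8 (85.5), H2-Ea-ps (112), H2-Aa (128), H2-Ab1 (104) and H2-Eb1 (109.8). In AB1 IPL 2, which had the highest B cell and mesothelial sums, the genes were Rgs17 (0.160), Wnt2 (2.18), Wt1 (11), Upk3b (31.4), Pdpn (203), Il18 (4.69) and Cfb (19.2). In AE17 IPL 5, which had the highest T cell sum, the genes were Unc13c (0), Tes (195), Tgfb1 (96.4), Col1a1 (7719), Col1a2 (4747), Mx1 (152), Ddx3y (50.6), Pparg (20.7), Ppargc1a (4.24), Pi16 (44.6) and Hist1h1c (94.3). In AE17 IPL 1, which had no count of Wt1, Upk3b and Lrrn4, the genes were Lsm8 (55.0), Hoxa6 (2.44), Wt1 (0), Upk3b (0), Lrrn4 (0), Sfrp1 (2.02), Tap2 (211), Vegfc (16.3) and Atf3 (63.4). In AE17 IPL 3, which had the lowest T cell sum of its line, the genes were Irf9 (111), Cxcl9 (37.3), Cd8a (28.2), Ccl5 (44.0), Lag3 (9.28), H2-Ab1 (328), H2-Eb1 (364) and Klf4 (48.9). The others were Hoxd11 in AB1 IPL 3 (16), Setd2 in AE17 IPL 6 (85.8), Pbrm1 in AE17 IPL 6 (107), Cdkn1a in AB1 IPL 3 (57.1), Cdh1 in AB1 IPL 6 (15.8), Klra7 in AE17 IPL 8 (3.48), Flt4 in AE17 IPL 8 (5.19), Tpsab1 in AE17 IPL 8 (0.513), Cpa3 in AE17 IPL 8 (8.15), Mki67 in AE17 IPL 6 (194) and Fabp5 in AE17 IPL 8 (47.5).

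The AB1 to AE17 difference itself differed between pleura and skin, by an interaction test over all 32 tumors (edgeR, adjusted p under 0.05), in 122 of the named genes, given as the difference in log2 units. In a comparison with this many genes called at each site, 20.5% of all genes passed this test. Among type I interferon genes it was more negative in the pleura for Rsad2 (-1.17), Ifit3 (-1.09), Oas3 (-1.32), Ifit1 (-1.10), Mx1 (-1.40), Oasl1 (-1.15), Ifih1 (-1.20), Ddx58 (-0.85) and Irf7 (-1.15). Among interferon-inducible genes outside that list it was more negative in the pleura for Ifi202b (-1.44) and Parp14 (-1.33). Among interferon-gamma and class I genes it was more negative in the pleura for Cxcl10 (-1.76), Gbp2 (-1.46), Ido1 (-2.43), Cd274 (-1.67), Irf1 (-0.86), Cxcl9 (-1.78), Cxcl11 (-2.17), B2m (-0.79), H2-K1 (-0.79), H2-D1 (-0.76), Nlrc5 (-1.23), Tap1 (-1.05), Tap2 (-0.91), Psmb8 (-0.88), Psmb9 (-1.06) and Psmb10 (-1.05). Among lymphoid and myeloid genes it was more negative in the pleura for Cd8a (-2.72), Trac (-1.79), Cd3e (-1.80), Ccl5 (-2.30), Pdcd1 (-2.27), Lag3 (-2.0), Havcr2 (-1.15), Klra4 (-2.15), Ccl2 (-2.04), Ccl7 (-1.13), Ccl8 (-1.19), Itgax (-1.82), Ly6a (-1.27) and Cfb (-1.28). Among Hox genes it was more positive in the pleura for Hoxd3 (1.61), Hoxd4 (1.08), Hoxd8 (1.16), Hoxd9 (2.25), Hoxd10 (2.87), Hoxa7 (0.37), Hoxa10 (0.47) and Hoxb8 (0.68). Among matrix and adhesion genes it was more positive in the pleura for Fn1 (1.30), Col1a1 (1.31), Col1a2 (0.94), Col3a1 (0.89), Col6a1 (1.28), Col6a2 (1.32), Mmp2 (1.36), Mmp11 (1.90), Itga11 (2.28), Itgb4 (2.83), Pi16 (2.37) and Pdgfrb (0.86). Among Wnt and TGF-beta genes it was more positive in the pleura for Wnt5a (1.57), Wnt5b (3.06), Fzd2 (0.82), Axin2 (1.01), Nkd1 (1.59), Tgfb2 (2.45) and Tgfbr3 (0.64). Among muscle and erythroid genes it was more positive in the pleura for Acta1 (2.99), Ckm (5.06), Tnni2 (3.99), Tnnt3 (4.14), Hba-a1 (2.78) and Pdk4 (4.03). Of the other genes it was more positive for Pianp (1.69), Cdh26 (1.49), Fgfr2 (1.70), Pdgfra (0.97), Nf2 (0.33), Wwtr1 (0.43), Tead3 (0.45), Vim (0.46), Nnt (0.34), Sdha (0.19), Sdhb (0.36), Hspb1 (1.70), Igf2r (0.89), Peg13 (0.76), H19 (3.36), Robo1 (1.52), Boc (1.65), Clstn1 (0.66) and Wrap73 (0.40). Of the other genes it was more negative for Tcp11x2 (-1.89), Crabp1 (-2.64), Mdfic (-0.33), Axl (-0.51), Wt1 (-3.42), Cdh1 (-1.18), Lama5 (-0.95), Plaur (-0.66), Mmp10 (-1.89), Mmp12 (-2.99), Timp3 (-0.62), H2-Q2 (-0.61), H2-Q1 (-0.76), H2-K2 (-0.80), H2-Q10 (-0.94), H2-Bl (-0.92), H2-T3 (-1.29), H2-Q5 (-0.92), Xist (-2.34), Eif2s3y (-1.05), Hopx (-0.77), Slc2a1 (-1.01), Slc16a3 (-1.22), Pfkp (-1.02), Atf3 (-1.22), Fabp5 (-1.50), Pla2g7 (-1.0), Cyp4f18 (-1.61) and Asns (-0.82).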

How the results depend on the processing

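The count of 8793 pleural genes was 3006 with a fold change of at least 1 log2 unit required and 4891 with tissue marker scores as covariates. The tissue scores included a lung list whose sums did not overlap between the lines, so that this fit cannot tell tissue from line. The count of 9370 skin genes was 2606 with that minimum, and the count of 3212 genes whose difference differed between the sites was 1347 with it and 1513 at an adjusted p under 0.01. The pleural count lay between 6323 (AE17 tumors of lane 1 alone) and 10569 (DESeq2) under the other settings, which were other normalizations, limma-voom, other filters on low counts, a GC correction, a fit of all 32 tumors, single lanes, an adjusted p under 0.01 and, chosen after seeing the data, fits without AB1 IPL 2 and 4, AB1 IPL 3, 4 and 5 or AE17 IPL 1, 5 and 8. Leaving out 1 tumor at a time gave 8422 to 9208 genes in the pleura, 9084 to 9663 in the skin, 2722 to 3664 for the difference between the sites, and a difference in total counts of 1322748 to 1813771. Scaling by total counts instead of TMM called 4950 genes higher in AB1 and 3926 in AE17, with a median of 0.06. Replicate numbers are shared between the groups, but do not pair the tumors: same-numbered tumors correlated between -0.31 and 0.18, and none correlated best with its own number. With the replicate number as a block 8265 pleural genes were called, 8124 of them shared with the fit without it, and 8847 in the skin and 2823 for the difference. Of 247 called genes that the text names, 197 kept direction and call under every alternative in which they were tested, at most 31 each, since only 232 of 285 named genes had at least 10 counts in every tumor. With tissue scores 45 of the called genes lost their call, namely Acta1, Axin2, Bax, Ccl11, Ccl8, Ccne1, Ccng1, Cd274, Cd3e, Ckm, Col1a2, Ddx3y, Eif2s3y, Foxp3, Fzd2, H2-Ab1, H2-Eb1, Hba-a1, Hgf, Hoxa11, Hoxa2, Hoxb3, Hoxb5, Hoxb9, Hoxc9, Ido1, Irf1, Kdm5d, Klra7, Mdm2, Mki67, Mrc1, Pdcd1, Pdgfra, Pdpn, Ppargc1a, Rassf1, Rb1, Sc5d, Tead3, Tnnt3, Trem2, Tsc1, Uty and Xcr1. With the AE17 tumors of lane 1 alone 36 lost it and with those of lane 2 alone 16. The sign changed with a call in at least one of the compared fits for Hoxc6 (-0.41 with tissue scores), Wt1 (-1.38 with DESeq2, -1.54 without AB1 IPL 2, -1.50 without AB1 IPL 2 and 4), Upk3b (-3.30 with DESeq2, -3.79 with limma-voom, -2.78 with the replicate block, -3.99 and -3.92 without those tumors), Lrrn4 (-3.28 with limma-voom, -2.74 and -2.54 without them), Hba-a1 (-0.19 without AB1 IPL 3, 4 and 5) and Adipoq (2.60 with DESeq2). Leaving out 1 tumor other than AB1 IPL 2 gave at most 0.29 for Wt1, 0.87 for Upk3b and 0.63 for Lrrn4. Single tumors ended the calls of 13 named genes, whose log2 fold changes then ranged over 0.47 to 0.75 for Col1a2, -0.75 to -0.50 for H2-Eb1, 1.55 to 2.35 for Hba-a1, -0.30 to -0.20 for Hoxc9, 0.40 to 0.58 for Rb1, -0.53 to -0.35 for Sc5d, -1.32 to -0.94 for Sfrp1, 0.69 to 0.97 for Mki67, -0.95 to -0.64 for Ddx3y, -0.91 to -0.64 for Uty, -0.67 to -0.47 for Kdm5d (AE17 IPL 5), -0.72 to -0.49 for Hgf (AE17 IPL 5) and -0.85 to -0.53 for Mrc1 (AE17 IPL 3). The causes were not tested. Levels under 0.186 CPM are under the limit of detection in at least one tumor, and fold changes against them are loosely set.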

Other observations

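Some genes were counted in the pleural tumors of one line and not at all in those of the other. With a mean of at least 1 CPM in one line and no count in any tumor of the other, 12 genes were found in AE17, 10 of them protein coding, and 7 in AB1, of which 2 were protein coding. Besides Zic5, Zic2, Hoxa13 and Hoxb13, the AE17 genes included Dlx2, a homeobox gene of the forebrain and jaw, at a mean of 4.10 CPM, Sprr1b and Sprr2a1, small proline-rich proteins of the epidermal envelope, at 3.39 and 2.11 CPM, Th, the enzyme that begins catecholamine synthesis, at 2.37 CPM, and Snap25, of synaptic vesicle fusion, at 1.19 CPM. On the AB1 side the protein-coding genes were Naa11, an acetyltransferase subunit, at 2.01 CPM and Btnl10, a butyrophilin-like gene, at 1.61 CPM. For genes that carry strain variants, sequence and level cannot be told apart in these counts.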
